A study of Mus musculus with 550 samples.

Results

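The 10 genes described here are the BMP signalling and Id genes of a count table of 55228 gene names: the ligand gene Bmp4, the receptor gene Bmpr1a, the signal transducers Smad1 and Smad5, the inhibitory Smads Smad6 and Smad7, and the Id genes Id1, Id2, Id3 and Id4. They were listed by name, and no measured value is part of the rule that lists them. The cells were E14 mouse embryonic stem cells (ESCs, strain 129/Ola), either wild type (WT) or homozygous knockouts of a de novo DNA methyltransferase, Dnmt3a -/- (3AKO) or Dnmt3b -/- (3BKO). All were differentiated into embryoid bodies (EBs), aggregates that form in low-attachment plates once LIF is withdrawn, and single cells were sorted at day 3 and day 9 for a modified Smart-seq2, a full-length protocol that gives reads without molecular identifiers. The study worked with more than 1 clone of each mutant and pooled the EBs of each clone before dissociation, and the labels do not say which cell came from which clone or EB. The comparisons asked whether these genes differed between genotypes at day 9 and between days in WT EBs.

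BMP ligands bind pairs of type I and type II receptors, and the activated type I receptor, such as the product of Bmpr1a, phosphorylates Smad1 and Smad5. These enter the nucleus with Smad4 and switch on target genes, among them the Id genes and the inhibitory Smads, which feed back on the receptors. Id proteins lack a DNA-binding region and hold E proteins away from DNA, and in ESCs BMP signals together with LIF to restrain neural differentiation.

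A library below means the kept cells of 1 genotype, day and batch, which gave 12 libraries of 21 to 61 cells and 8071118 to 22867811 assigned reads, from 486 of 550 cells that had at least 50000 reads, 2000 detected genes and at most 50% mitochondrial reads. Levels are counts summed over the cells of a library or group and scaled by the library total to CPM (1 read in 50000 is 20 CPM), with exact 95% Poisson intervals that cover counting error only. Since nothing in the labels separates cultures, each genotype at a day was 1 sample, no test could be made, and a difference was called by size alone: the gene had to reach 20% of the cells in 1 of the groups compared, in each batch, and the ratio had to be 2-fold or more in both batches with the same sign. Dnmt3a was at 23.9 to 26.1 CPM in the 3AKO and 44.8 to 177 CPM in the other day 9 libraries, and Dnmt3b was at 15.9 and 16.8 CPM in 3BKO and 155 to 335.5 CPM in the others. At day 3 the library labelled 3AKO in batch 2 had 334.5 CPM of Dnmt3a and the library labelled 3BKO in batch 2 had 12.8 CPM, the reverse of what their labels say, so the day 3 mutant libraries are described one by one with no call. Dnmt3b was less clear at day 3. In batches 1 and 2 it was at 260.9 and 85.1 CPM under the label 3AKO, 166.7 and 185 CPM under 3BKO, and 600.1 and 523.2 CPM in WT. No day 3 library was as low as 3BKO at day 9. The epiblast markers fixed for the label check were present in every library (13 or 14 of 14 genes, 5643 to 14860 CPM summed), 14 meso-endoderm markers summed to 5.33 to 131 CPM, and 7 extra-embryonic endoderm markers to 0.867 to 182 CPM.

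The start regions of the Id genes are shown because Id2 and Id3 gave the only calls among the 10 genes, and Id4, of the same family, was seen in too few cells to be compared. RefSeq promoters (GRCm38.p6) were found for 8 of the 10 genes, all but Id1 and Smad7. Capitals mark GGCGCC and GGAGCC (read as GGCTCC on the other strand), GC-rich letters that BMP-activated Smads can bind. For Id2, the upstream window lay within the gene as GENCODE annotates it, and its 89 bases outside annotated UTR sequence are given, minus strand, chr12:25096254-25096342:
Id2: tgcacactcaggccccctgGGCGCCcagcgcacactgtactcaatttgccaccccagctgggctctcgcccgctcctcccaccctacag
For Id3, the upstream window lay wholly within an exon of a longer GENCODE transcript, and 30 bases around its match are given, plus strand, chr4:136143623-136143652:
Id3: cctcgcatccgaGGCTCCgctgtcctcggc
For Id4, the 250 bases before the start, plus strand, chr13:48260866-48261115:
Id4: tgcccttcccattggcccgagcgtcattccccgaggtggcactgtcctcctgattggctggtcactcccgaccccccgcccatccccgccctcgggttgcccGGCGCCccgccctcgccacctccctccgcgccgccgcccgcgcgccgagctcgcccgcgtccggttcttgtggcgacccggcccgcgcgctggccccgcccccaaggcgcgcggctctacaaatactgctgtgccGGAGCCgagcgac
Of 32817 mouse promoters of 250 bases, 9.59% held GGCGCC and 26% (8522) held GGAGCC on either strand, and matches to these did not overlap in the Id genes. In the full 250-base windows Id2 and Id4 held 1 match to each and Id3 held 1 match to GGAGCC. A match is a description of letters and not a binding site. The windows of Id2 and Id3 each had 18 CpG dinucleotides and that of Id4 had 35, against a median of 6 over all promoters. The palindrome GTCTAGAC, in 0.168% of all promoters, was in none of the windows of the 8 genes.

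Per kilobase of exon, the highest of the 10 genes was Id1, Id2 or Id3 in every library. The 3 also filled the top places in 10 of 12 libraries, the exceptions being batch 1 of WT at day 3, where Bmp4 (19.5 CPM per kilobase) was above Id3 (17.1), and the library labelled 3AKO of batch 2 at day 3, where Bmpr1a (7.998) was above Id3 (7.89). Over all kept cells Id1 reached 59.98, Id3 53.2 and Id2 52.1 CPM per kilobase. Their order changed from library to library: Id1 was highest in 5 libraries, Id2 in 4 and Id3 in 3. Bmp4 followed at 13.7 CPM per kilobase, then Smad7 at 3.97, Bmpr1a at 3.28, Smad5 at 2.51 and Smad1 at 2.07, whose ranges over libraries overlapped. Id4 (0.984) and Smad6 (0.218 CPM per kilobase) were lowest. Reads of Smad6 amounted to 106 in 13 of 486 cells.

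**Figure D1:**
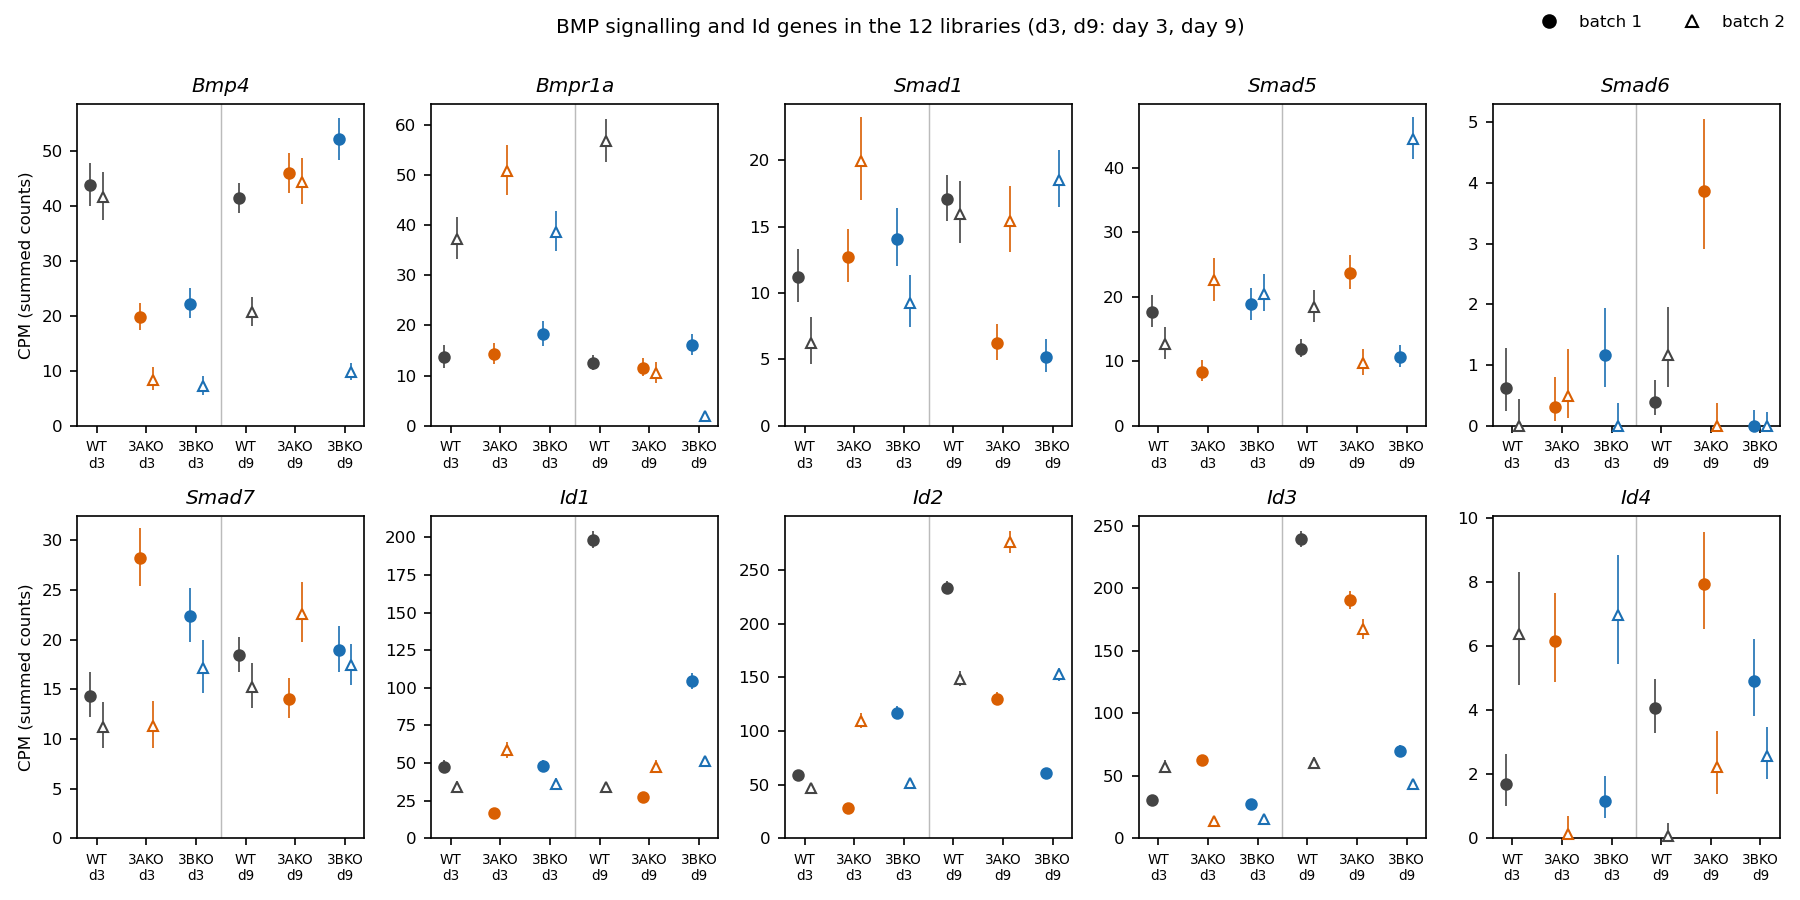
Summed counts scaled to CPM of the 10 genes in the 12 libraries, with 95% Poisson intervals (counting error only); filled circles are batch 1, open triangles batch 2, grey WT, orange 3AKO, blue 3BKO by label (the labels of the day 3 mutants in batch 2 are in doubt). Both batches of Id2 in WT lie higher at day 9 (233 and 149 CPM) than at day 3 (58.8 and 46.9 CPM), while Id1 and Id3 in WT at day 9 are high in batch 1 alone.

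Of the 8 genes seen widely enough to be compared in WT EBs, only Id2 met the rule between day 9 and day 3. Id2 lies on chromosome 12 (25093799 to 25097140, minus strand, GRCm38) and encodes an inhibitor of E proteins. At day 3 it was at 58.8 CPM in batch 1 and 46.9 CPM in batch 2, and at day 9 at 233 and 149 CPM. Both day 9 values lay above both day 3 values. Over both batches the level was 204 CPM (199.6 to 209) at day 9 and 53.7 CPM (50.5 to 57) at day 3, a log2 ratio of 1.91 (1.97 and 1.64 in batches 1 and 2). Over all 10162 genes compared, 5.25% were called higher at day 9 and 2.19% lower, and 1 of 8 genes of the set were called higher and none lower. Of the markers, Nanog and Pim2 among 14 epiblast genes and Crabp2 among 7 neuroectoderm genes compared were also called higher at day 9, and their part in the Id2 difference was not tested. The lists went both ways, with 6 epiblast genes higher and 5 lower in both batches, and 3 neuroectoderm genes higher and 1 lower. Summed, the epiblast genes were at 12580 and 6683 CPM at day 3 and lower, at 9470 and 5643 CPM, at day 9. With only cells kept that had 2 reads or more of at least 3 epiblast markers, the log2 ratio of Id2 was 1.92 (2.01 and 1.64). That limit kept all 79 cells of day 3 and 84 of 89 cells of day 9, whatever other markers they had.

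The share of cells in which Id2 was seen moved less than its level. At 50000 reads per cell, 57.3% of WT cells had an Id2 read at day 9 (51 of 89 cells, exact interval 46.4 to 67.7) and 46.8% at day 3 (35.5 to 58.4). Cells with at least 10 Id2 reads at that depth made up 33.7% at day 9 and 6.33% at day 3. The median over cells with a read was 232 CPM at day 9 and 71.5 CPM at day 3, so Id2 made up a larger share of the reads of cells that had it. Kept WT cells had fewer detected genes at day 9 (medians of 5591.5 and 5993 in batches 1 and 2) than at day 3 (7265.5 and 7328). The part of this in the Id2 shares was not tested.

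Id1 and Id3 had log2 ratios of 1.75 and 2.06 over both batches, but these came from batch 1 alone. Id1 (chromosome 2, 152736251 to 152737410) and Id3 (chromosome 4, 136143497 to 136145755) are close relatives of Id2 and are standard readouts of BMP signalling. In WT at day 3 Id1 was at 47.6 and 33.8 CPM in batches 1 and 2, and at day 9 at 198 and 33.96 CPM. Only the batch 1 library at day 9 stood apart from the rest. For Id3 the values were 30.6 and 57.1 CPM at day 3 and 239 and 60.4 CPM at day 9, again with only batch 1 of day 9 apart. The log2 ratios of day 9 to day 3 were 2.04 and 0.01 for Id1 and 2.93 and 0.08 for Id3 in batches 1 and 2. The 60 cells of that batch 1 library were spread in their Id1 and Id3 levels, and its highest cell held 19.5% of the Id1 reads and 11.4% of the Id3 reads.

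The other genes compared in WT changed by less. Smad1 went from 9.08 to 16.7 CPM over both batches (log2 ratio 0.81, with 0.57 and 1.23 in the batches), and Smad7, which blocks the activated receptor, from 12.99 to 17.35 CPM (0.39, with 0.34 and 0.41). Bmp4 was at 43.8 and 41.7 CPM at day 3 and 41.4 and 20.7 CPM at day 9. Bmpr1a and Smad5 had opposite signs in the batches. The median log2 ratio of the 8 genes was 0.60, against 0.19 over all genes compared.

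At day 9 the genotypes differed by the rule in 1 gene. Id3 was at 191 and 167 CPM in the 3AKO libraries of batches 1 and 2, at 70.1 and 43.8 CPM in the 3BKO libraries, and at 239 and 60.4 CPM in the WT libraries. Both 3BKO values lay below both 3AKO values, and the WT libraries fell on either side. Over both batches 3BKO had 55.96 CPM (53.3 to 58.7) and 3AKO 181 CPM (176 to 186), a log2 ratio of -1.68 (-1.43 and -1.91). In that comparison of 9152 genes 4.56% were called higher in 3BKO and 4.91% lower, against none of the 8 genes higher and 1 lower. The number of cells with an Id3 read at equal depth did not part the genotypes: 43.3% (31.2 to 55.96) of 3BKO and 48.9% (38.1 to 59.8) of 3AKO cells.

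A few cells weighed on the Id3 level of 3AKO, and without 7 of them the call was narrowly missed. In batch 2, 1 of 27 cells held 43.4% of the Id3 reads, at 8952 CPM of its 80206 reads, and it had at least 2 reads of only 1 of the 14 epiblast markers and of 4 of the 14 neuroectoderm markers. With the highest cell left out of each library, the log2 ratio of 3BKO to 3AKO was -1.55 (-1.32 and -1.73) and still met the rule. With only epiblast-positive cells kept (2 reads or more of at least 3 of 14 markers, whatever other markers they had), it was -1.11 (-0.997 and -1.14). That choice was made after seeing the data, and the rule was missed narrowly, in batch 1. All 67 3BKO cells and 81 of 88 3AKO cells were positive by that limit. The other 7 3AKO cells had Id3 at 1030 CPM, and the positive cells, with 63.2% of the Id3 reads, at 122 CPM.

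Between 3AKO and WT at day 9 none of the 8 genes met the rule, and 5 of them had opposite signs in the batches. The backgrounds were 1.07% of 9201 genes called higher in 3AKO and 1.59% lower. Signs were opposite for 43.2% of all genes compared. Id1 showed the spread most plainly: 27.3 and 47.5 CPM in 3AKO against 198 and 33.96 CPM in WT, so the pooled log2 ratio of -1.96 was -2.82 in batch 1 and 0.47 in batch 2. Id2 was at 130.1 and 276 CPM in 3AKO against 233 and 149 CPM in WT. Bmp4 was higher in 3AKO in both batches, by log2 ratios of 0.15 and 1.07, and Bmpr1a lower, with log2 ratios of -0.10 and -2.33.

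Between 3BKO and WT at day 9 none of the 8 genes met the rule either. The backgrounds were 2.86% of 9235 genes called higher in 3BKO and 4.98% lower. Opposite signs in the batches were found for 6 of the 8 genes and for 33.8% of all genes compared. Id3 was lower in 3BKO in both batches, with log2 ratios of -1.76 and -0.46, and so missed the rule in batch 2. Smad7 lay within 0.18 of equality on the log2 scale in both batches. Id2 was at 61.3 and 153 CPM in 3BKO, below WT in batch 1 (log2 ratio -1.91) and level with it in batch 2 (0.04). The median log2 ratio of the 8 genes was -0.65, against -0.08 over all genes compared, and it was -0.04 between 3AKO and WT, where that over all genes was -0.10. The mutants were compared with the same WT cells, so these are not independent.

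**Figure D2:**
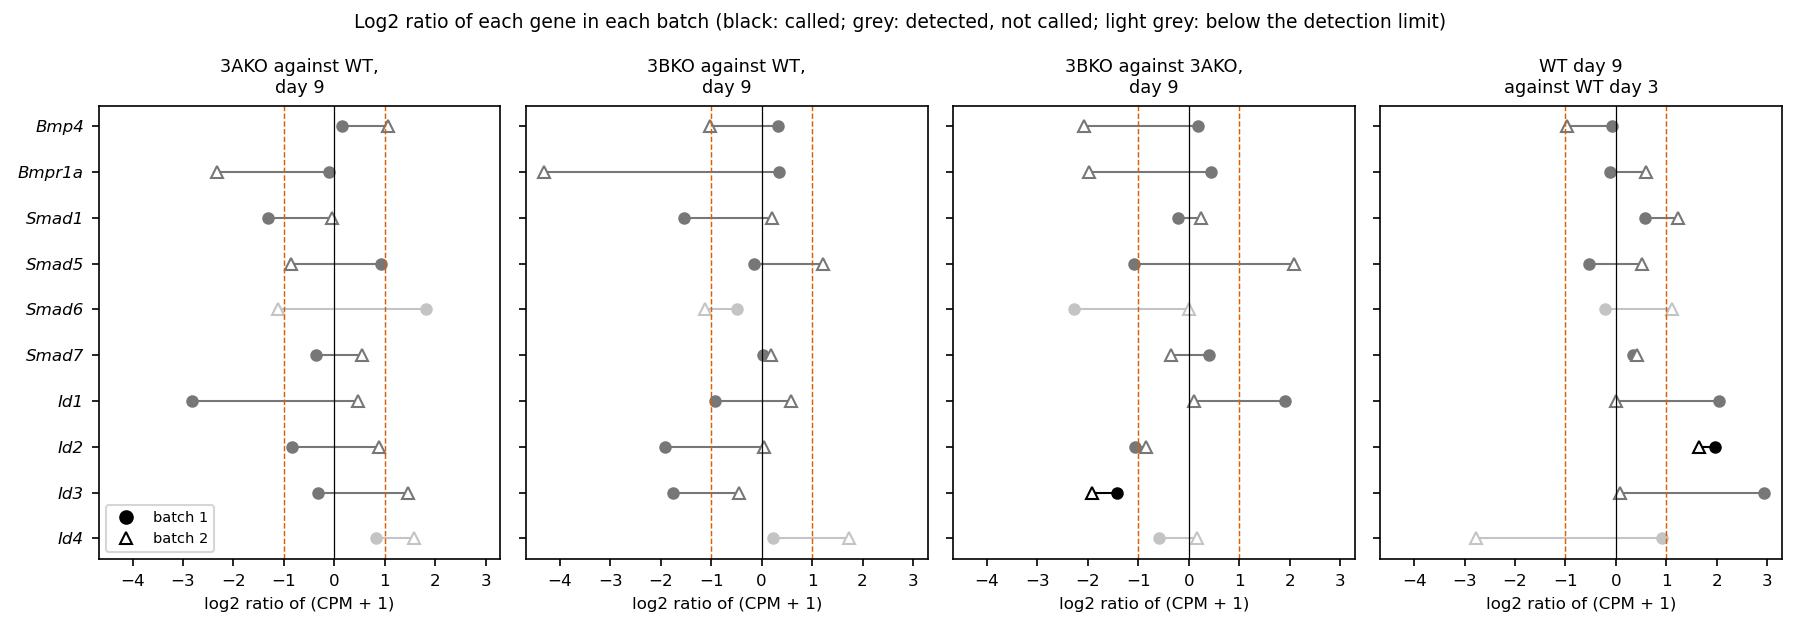
Log2 ratio of (CPM + 1) of each gene in batch 1 (filled circles) and batch 2 (open triangles) for the 4 comparisons; dashed lines mark 2-fold, black the genes that met the rule, light grey those under the detection limit. Only Id3 in 3BKO against 3AKO (-1.43 and -1.91) and Id2 in WT day 9 against day 3 (1.97 and 1.64) lie beyond the same dashed line in both batches.

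Id2 came close to the rule between the mutants, with 61.3 and 153 CPM in 3BKO and 130.1 and 276 CPM in 3AKO (log2 ratios of -1.08 and -0.85). Its ranges overlapped between the genotypes. Single cells made up much of these levels, since 1 cell held 41.9% of the Id2 reads of 3AKO and 1 cell held 32.1% of those of 3BKO. In batch 2 the highest cell held 69.65% of the Id2 reads of 3AKO and 43.27% of those of 3BKO. With the highest cell left out of each library, the Id2 log2 ratio of 3AKO to WT went from -0.10 to -0.98 (-1.31 and -0.08). That of 3BKO to WT went from -0.88 to -1.46 (-2.85 and -0.08). Both mutants were then at -0.08 to the same WT library in batch 2, so the batch 2 gap between them rested on the highest cells. Id1 was at 104 and 51.3 CPM in 3BKO against 27.3 and 47.5 CPM in 3AKO, log2 ratios of 1.90 and 0.11.

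At day 9, and in WT at day 3, both batches of a group came from 1 sorting plate, while at day 3 those of a mutant label came from different plates. Each genotype had a plate of its own at day 9 and WT had another at day 3, so plate cannot be told apart from genotype or day in any of the 4 comparisons. The gap between batches sets the scale for reading these ratios. Among the 44 combinations of gene and group in which a gene of the set was seen in at least 20% of cells of both batches, 20 differed at least 2-fold between batches (45.5%). Over all genes that passed the same limit the share was 13.5% to 33.5%, depending on the group. Both figures include the mutant groups of day 3, whose batches also differ in plate and have labels in doubt. There the gap is not one of batch alone, so 45.5% may overstate the gap within a genotype. The largest such gaps were Id1 in WT at day 9 (log2 ratio of batch 1 to batch 2 of 2.51) and Bmp4 in 3BKO at day 9 (2.31). Smad7 differed 2-fold between batches only in the group labelled 3AKO at day 3, where the label of batch 2 is in doubt.

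Signal transducers and receptor were low and uneven at day 9. Smad5 was at 10.7 CPM in batch 1 and 44.5 CPM in batch 2 of 3BKO, and 1 cell of batch 2 held 61.96% of the latter. The same held for Smad1 in that library, at 18.5 CPM, of which 1 cell held 90.03%. Bmpr1a was at 16.1 and 1.91 CPM in 3BKO, 11.6 and 10.5 CPM in 3AKO and 12.6 and 56.7 CPM in WT. The high WT value had 37.9% of its reads in 1 cell. Smad6 had no read in the 67 3BKO cells at day 9, which allows up to 0.0991 CPM at a floor of 3 reads, and 23 reads in 2 WT and 54 reads in 4 3AKO cells. Id4 was under the detection limit in all comparisons, at 0.0837 to 7.95 CPM over the 12 libraries.

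At day 3, Bmp4 was at 43.8 and 41.7 CPM in the WT libraries. The libraries labelled 3AKO were at 19.8 and 8.43 CPM and those labelled 3BKO at 22.2 and 7.20 CPM. All 4 mutant libraries thus lay below both WT libraries, whichever way the labels in doubt are read. How many of all genes part WT from the mutants in this way was not counted. The WT cells of day 3 had a sorting plate of their own, so plate cannot be told apart from genotype for this gap. Few cells made up these levels: 1 cell held 19.88% and 32.86% of the Bmp4 reads of the WT libraries of batches 1 and 2. In the mutant libraries 1 cell held 20.87% to 50%. The share of cells with a Bmp4 read at equal depth was 30.4% (20.5 to 41.8) in WT, 25.3% (16.4 to 36.04) under the label 3AKO and 21.3% (12.9 to 31.8) under 3BKO, intervals that overlap.

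Between the 4 mutant libraries of day 3, none of the 10 genes had both values of 1 label above both of the other. Both values of 1 sorting plate lay above both of the other for 5 genes (Smad1, Id1, Id2, and Smad6 and Id4 at few reads), and both values of 1 batch for the other 5. Of the 8 genes seen in at least 20% of cells of each library, 3 split by plate and 5 by batch, against 26.6% and 58.7% of 8927 such genes in all, and 14.7% split by label. On the plate with the libraries labelled 3BKO of batch 1 and 3AKO of batch 2, both with Dnmt3a at 334.5 CPM or more, Id2 was at 117 and 109.7 CPM and Id4 at 1.16 and 0.124 CPM. On the plate with 3AKO of batch 1 and 3BKO of batch 2, with Dnmt3a at 25.8 and 12.8 CPM, Id2 was at 28.5 and 51.3 CPM and Id4 at 6.16 and 6.995 CPM. Id1 was at 47.8 and 58.7 CPM on the first plate and 17.1 and 35.99 CPM on the second. The WT plate had Id2 at 58.8 and 46.9, Id4 at 1.69 and 6.38 and Id1 at 47.6 and 33.8 CPM. Id3, which split by batch, was at 27.6 and 14.1 CPM on the first plate and 62.5 and 15.7 CPM on the second. Plate and genotype cannot be told apart here.

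Within libraries, cells with an Id1 read had Id2 or Id3 more often than cells without one. At 50000 reads per cell, Id3 was seen in 106 of 177 cells with an Id1 read (59.9%) and in 102 of 309 cells without one (33.01%), and the first share was the higher in 12 of 12 libraries. For Id2 the shares were 61.6% of cells with and 36.6% of cells without Id1, higher with Id1 in 11 of 12 libraries. Id2 and Id3 were less tied, with 48.2% and 38.3% and the same direction in 7 of 12 libraries. The mean Spearman correlation over the 12 libraries was 0.32 for Id1 and Id2 (0.00 to 0.59), 0.32 for Id1 and Id3 (0.10 to 0.56) and 0.15 for Id2 and Id3, across cells of the same library, which share plate, batch and depth of thinning. The ligand gene Bmp4 and Id1 had a mean of 0.16, positive in 9 of 12 libraries, and all other pairs of the set were below that.

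**Figure D3:**
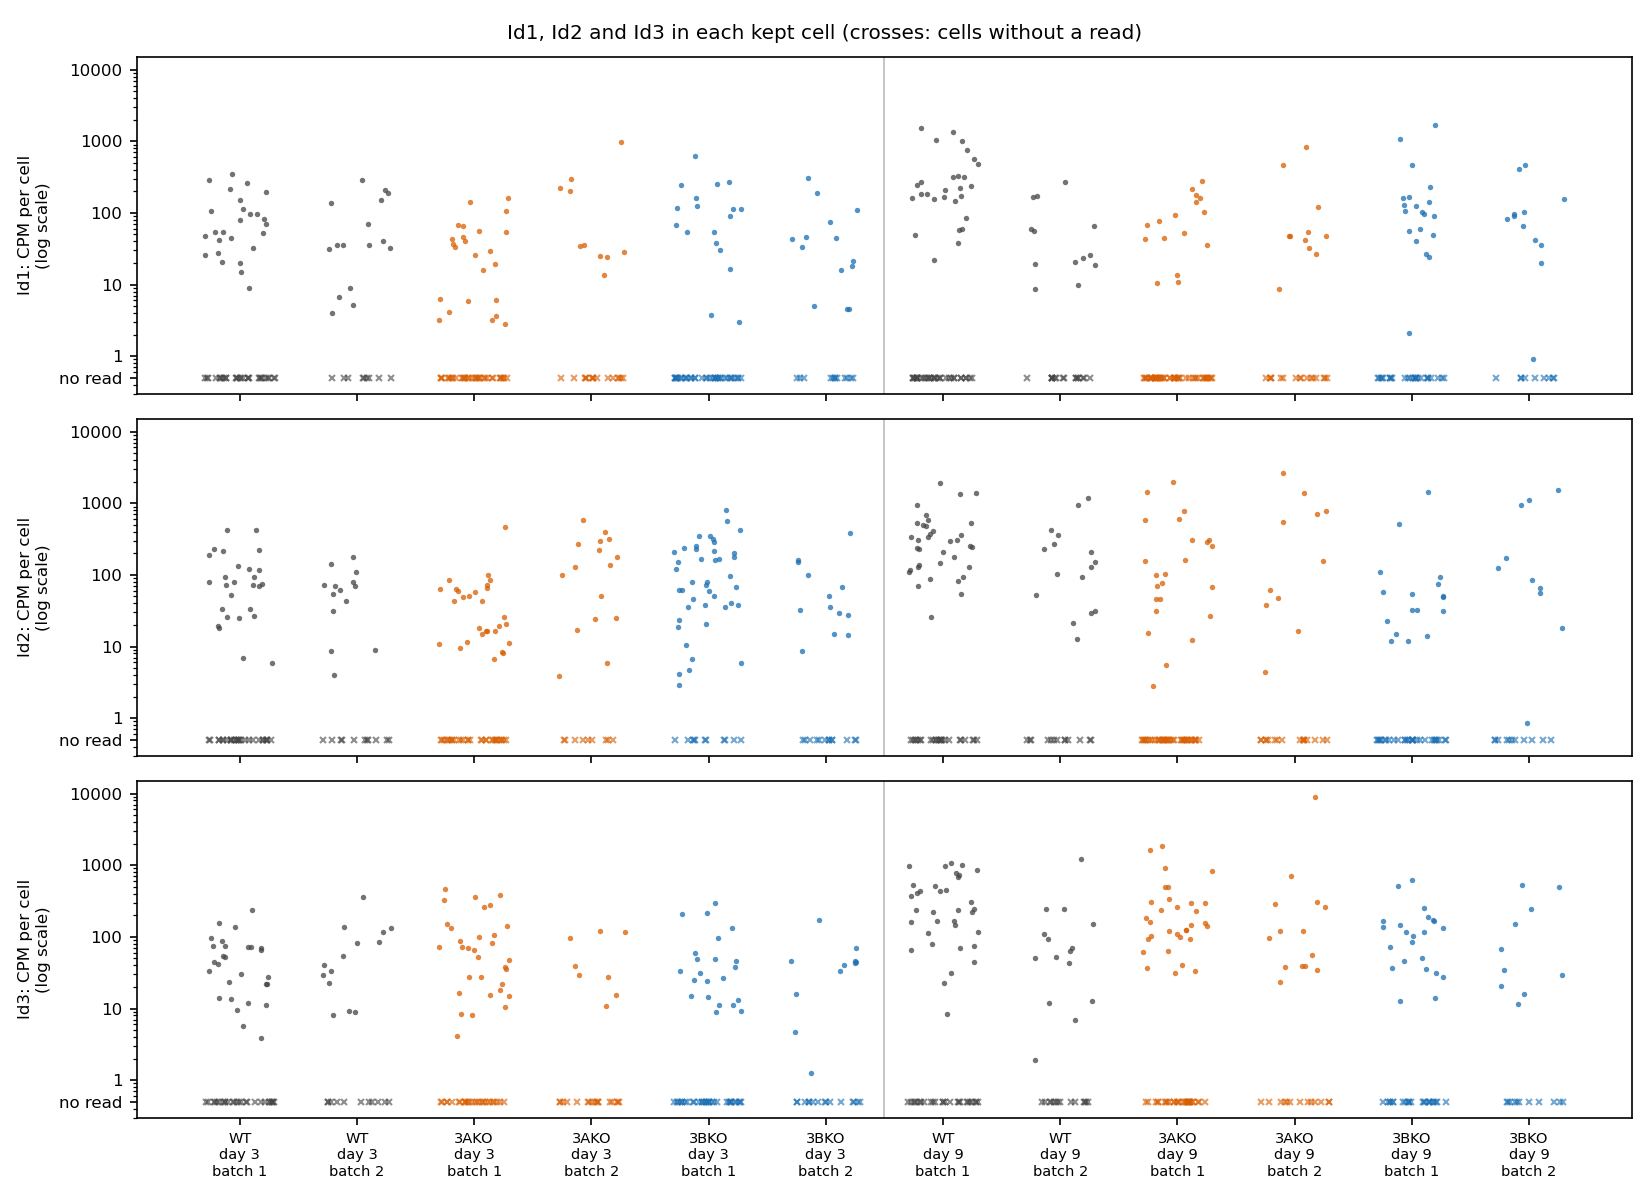
Id1, Id2 and Id3 in each of the 486 kept cells, as CPM on a log axis, by library; crosses are cells without a read, colours are genotypes by label. Cells of 1 library are spread widely, as for Id2 in 3BKO batch 2 at day 9, from 0.869 to 1551 CPM over cells with a read, and the highest is an Id3 value of 8952 CPM in 3AKO at day 9.

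All 3 of Id1, Id2 and Id3 were seen together in 26.97% of WT cells at day 9 (28.3% and 24.1% in the batches) and in 17.7% at day 3 (18.5% and 16%). In 3AKO at day 9 the share was 10.2% (9.84% and 11.1%), and in 3BKO at day 9 14.9% (10.9% and 23.8%). Both WT libraries of day 9 lay above all 4 mutant libraries of that day, but batch 2 of WT (7 of 29 cells) and batch 2 of 3BKO (5 of 21 cells) hardly differed. Under the day 3 mutant labels it was 6.90% to 11.1%, below both WT libraries, of which batch 2 had 4 of 25 cells. The highest mutant library, labelled 3BKO of batch 1, had 6 of 54 cells. These shares rest on few cells and 1 draw of the thinning, and are given without intervals. How often other sets of genes part WT from the mutants in this way was not counted. Each genotype had a plate of its own at day 9, and WT had its own at day 3, so plate cannot be told apart from genotype here. Cells with none of the 3 genes made up 16.7% to 32.8% of the day 9 libraries.

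**Figure D4:**
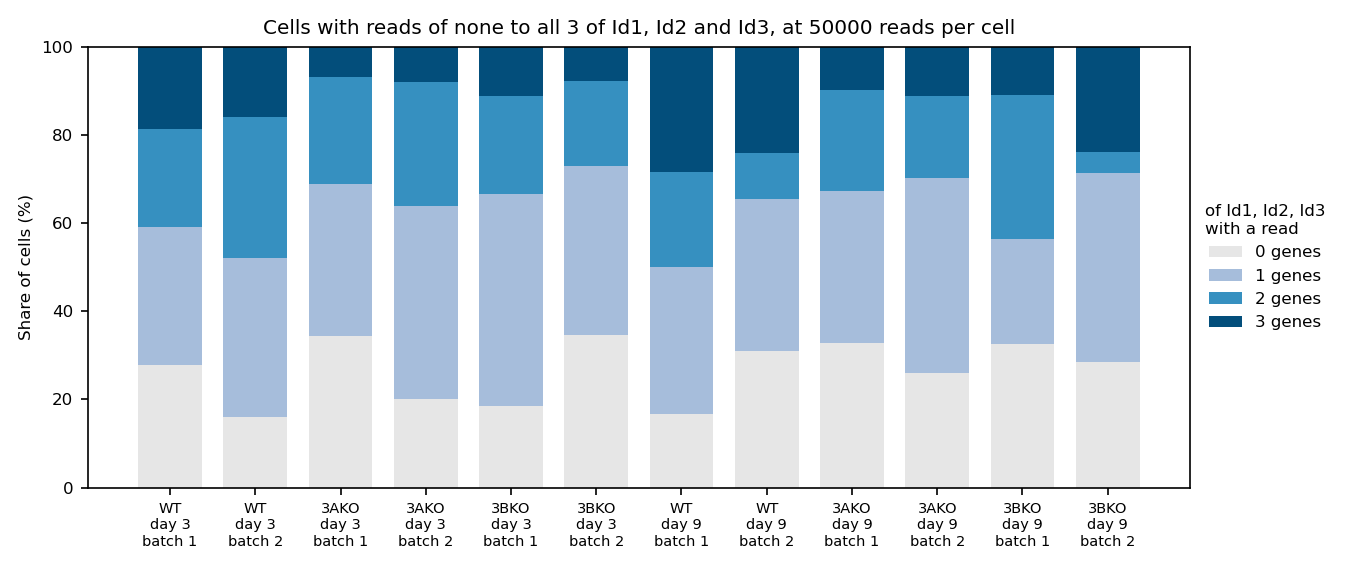
Share of cells (%) in each library with a read of none, 1, 2 or all 3 of Id1, Id2 and Id3 after every cell was thinned to 50000 reads. The darkest blocks, all 3 genes, are 28.3% and 24.1% in WT at day 9 and 9.84% and 11.1% in 3AKO at day 9.

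In 3AKO at day 9 most Id2 reads lay in cells with neuroectoderm markers, and in few of these cells. Positive cells were those in which 3 or more of the 14 neuroectoderm markers had 2 reads or more, and 50 of 88 3AKO cells at day 9 did. The limit counts reads without thinning, so it depends on depth, and the list holds Otx2, which the study also names as a primed pluripotency marker. In WT at day 3, 52 of 79 cells were positive and all 79 were epiblast-positive, so positive cells are not neural cells by this limit alone. They held 57.7% of all reads and 96.7% of the Id2 reads, at 214 and 459 CPM in batches 1 and 2 against 21.3 and 5.01 CPM in the other cells. The highest 3AKO cell, with 69.65% of the Id2 reads of batch 2, had 3 such markers, just enough to be positive, and 5 cells held 75.68% of the Id2 reads of 3AKO. WT at day 9 had 305 and 152 CPM in positive and 137 and 140.2 CPM in other cells. In 3BKO, where 16 of 67 cells were positive, the batches disagreed, with 15.5 and 430.3 CPM in positive and 74.6 and 25.1 CPM in other cells. In batch 2 of 3BKO 1 of the 6 positive cells held 1074 of 2482 Id2 reads, and it too had just 3 markers. Id2 was higher in positive cells in 9 of 12 libraries, Id1 in 7 and Id3 in 5. Between 3BKO and 3AKO, the contrast in which Id3 was called, 2 of 5 neuroectoderm markers compared were called lower in 3BKO (Sox11 and Nnat), and of 13 epiblast markers 2 were called higher (Nanog and Zfp42) and 1 lower (Pim2). Of the 5 neuroectoderm markers 3 were lower and 2 higher in both batches, and of the 13 epiblast markers 4 were lower and 8 higher. All 14 neuroectoderm markers summed to 488 and 355 CPM in 3BKO and 472 and 352 CPM in 3AKO. The only surface ectoderm marker compared, Krt18, was called lower in 3BKO, and the 3 3AKO cells positive for that list had Id3 at 371 CPM against 176 CPM in the rest. Their part in the Id3 difference was not tested. Meso-endoderm markers met the same limit in 0 to 4 cells per group, too few for a level.

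Outside the 10 genes, which were not candidates here, no gene was strongly like any of them over single cells. For Id1, Id2 and Id3 the values below stay under those of Id1 with Id2 and with Id3. Bmp4 had Mras (0.36), Lgals3 (0.33) and Hbegf (0.30) as the genes with the highest mean within-library correlation among 8779 candidates. Id1 had Mras (0.26), Vax2 (0.25) and Gpx1 (0.24), Id2 had Car3 (0.27), Stmn3 (0.26) and Golm1 (0.23), and Id3 had Sys1 (0.27), Pdik1l (0.22) and Myc (0.21). For Smad1 they were Pimreg, Efemp2 and Khdrbs1 (0.21 to 0.27), for Smad5 Afap1, Fam43a and Zfp369 (0.18 to 0.20), for Smad7 Msrb2, Jarid2 and Kdm5b (0.18 to 0.19), and for Bmpr1a Foxred2, Rdx and Cfl2 (0.19 each). Smad6 (Eme2, Txnrd2, Mapk13) and Id4 (Ahcyl2, Notch4, Arl1) rested on 6 and 10 libraries with few reads. These are highest values of many, in sparse counts.

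Of 66 other genes of the pathway, 23 to 25 were seen widely enough in a comparison. None of 12 other ligand genes was: Bmp2 was at 0 to 1.74 CPM and Bmp7 at 0 to 9.66 CPM over the libraries. Of 8 other receptors and co-receptors, Rgmb, a BMP co-receptor, was called in WT, higher at day 9 (11.8 against 3.91 CPM). Smad4, the partner of the BMP Smads, and Smad2, an activin transducer, were compared and not called, and Smad9 and Smad3 were seen in too few cells. The E protein genes Tcf3, Tcf4 and Tcf12, whose products Id proteins bind, were all compared and none was called.

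Among 13 secreted inhibitors, Fst, which encodes the activin and BMP binding protein follistatin, was called lower in 3BKO than in 3AKO at day 9. It was at 2.49 and 0 CPM in the 3BKO libraries, 98.3 and 43.4 CPM in 3AKO and 30.7 and 25.7 CPM in WT, so both 3BKO values lay below those of the other genotypes. Nog, the noggin gene, had at most 0.717 CPM in any library. Among 10 intracellular regulators, Tob1, which encodes a repressor of BMP Smads, was called lower in 3AKO than in WT (7 against 18.8 CPM) and higher in 3BKO than in 3AKO (33.4 CPM). Ctdsp2, a phosphatase gene, was called lower in 3BKO than in 3AKO (9.71 against 27.2 CPM), and Smurf1, a ubiquitin ligase of Smad1 and Smad5, lower in WT at day 9 than at day 3 (3.50 against 8.52 CPM).

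Among 16 other genes that can respond to BMP, 6 or 7 were compared. Tbx3 and Tfap2c, which encode transcription factors, were called higher in 3BKO than in both other genotypes at day 9. Tbx3 was at 201 and 101 CPM in 3BKO, 37.2 and 15.95 CPM in 3AKO and 29.5 and 17.3 CPM in WT. For Tfap2c the values were 116 and 72.2 CPM in 3BKO, 52.8 and 15.95 CPM in 3AKO and 51.7 and 24.1 CPM in WT. Both 3BKO libraries were above all others for both genes. With only epiblast-positive cells kept, Tfap2c fell short of the rule between the mutants, with log2 ratios of 0.99 and 2.07. Tfap2c was also called higher in WT at day 9 than at day 3 (42.2 against 5.99 CPM). In each of 3BKO against WT and 3BKO against 3AKO, 2 of 6 genes compared were called higher and 0 lower. Over all genes 2.86% were called higher and 4.98% lower against WT, and 4.56% and 4.91% against 3AKO. Against WT, 2 of 14 epiblast markers were called higher in 3BKO and 2 lower, and 2 of 5 neuroectoderm markers lower. Their part in these calls was not tested. No gene of this group was called lower in any of the 4 comparisons, against 1.59% to 4.98% of all genes.

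Some of these counts may be affected by neighbours that share exon bases. Bmp4, Bmpr1a and Id4 share bases with gene models on the other strand (Gm15217, Gm17110, and A330033J07Rik with Gm49291), Smad5 with Gm27301 on its own strand, Tbx3 with Tbx3os1 and Fst with Gm47040, and since the Nextera XT libraries do not mark strand, reads of opposite-strand partners cannot be told apart. Id1, Id2, Id3, Smad1, Smad6 and Smad7 overlap no annotated gene. Since levels are sums over cells, fewer cells with a gene and less RNA of it per cell cannot be told apart from the sums alone.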

How the data were processed

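Single-cell RNA-seq of WT, 3AKO and 3BKO EBs at day 3 and day 9 was used. The deposited values are read counts per gene name with no normalization. The authors trimmed reads with Trim Galore 0.5.0, aligned them to GRCm38 with STAR 2.7.1a and counted uniquely mapped exon reads by gene name with featureCounts 1.6.1 on a later GENCODE release than the one used here, per the labels and the study's methods. 26 columns that belong to no sample were not used. 550 cells belonged to a sample, and cells were filtered as the study's methods describe. No doublet caller was run, as 1 cell was sorted per well.

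Counts were summed per library and divided by the library total, and ratios were taken of CPM + 1, which understates changes of low genes. Shares of cells were compared after thinning each cell to 50000 reads, with exact (Clopper-Pearson) 95% intervals. Reads without molecular identifiers are not independent, so intervals and the floor of 3 reads cover counting error only. Genotype, day and batch came from the labels. Positions came from GENCODE vM21, in which 97.0% of names were found, and promoters from RefSeq. Scripts were tested on simulated data.

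Named were the 10 genes, pathway genes that met the rule (at most 5 per list and comparison) and, for each of the 10, the 3 genes with the highest mean correlation. The genes, lists and rules were chosen with earlier results of these data known. Alternatives changed the cell filter, the scaling (edgeR 4.0.16 TMM factors, DESeq2 1.42.0 size factors, R 4.3.3), the pseudocount, the detection limit, the fold and, added after seeing the data, the cells (epiblast-positive only).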

Additional observations from a re-analysis of the deposited data

How the results depend on the processing

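No paired analysis was possible because each genotype at a day was 1 sample and no result came from a test, and no replicate could be left out for the same reason. The call of Id3 between 3BKO and 3AKO and that of Id2 in WT held under each of 15 other alternatives, with log2 ratios of -1.89 to -1.43 and 1.69 to 2.05 over both batches. With epiblast-positive cells only, added after seeing the data, Id2 kept its call and Id3 lost it, which left 0 genes called between the mutants (Id3 at -1.11), while 1 gene, Id4, was higher in 3AKO than in WT. The number of genes of the set that met the rule moved in 8 of 64 combinations. With 2-fold asked only over both batches pooled it was 2 between 3AKO and WT (Bmpr1a and Id1, both lower), 2 between 3BKO and WT (Bmpr1a and Id3, both lower), 2 between 3BKO and 3AKO (Id1 higher, Id3 lower) and 3 in WT (Id1, Id2 and Id3, all higher), by the construction of that rule. With the highest cell of each gene and library left out, 1 gene, Smad1, was lower in 3BKO than in WT. At 1.5-fold in both batches, 2 genes, Id2 and Id3, were lower in 3BKO than in 3AKO. Of 440 log2 ratios of the 10 genes under other filters, scalings and pseudocounts, 16 changed sign, all of genes without a call in that comparison, among them Smad1 between 3BKO and 3AKO (0.27, and -1.07 without the highest cells). The median log2 ratio of all genes shifted by -0.12 (no mitochondrial genes in the total), -0.21 (TMM) and -0.18 (median-ratio) between the days in WT, and by 0.11 (median-ratio) between 3BKO and WT. Over all genes, calls between 3AKO and WT numbered 244 and ranged from 49 (pseudocount of 10 CPM) to 884 (1.5-fold), between 3BKO and WT 724 (304 to 1851), between the mutants 866 (370 to 2085) and between the days in WT 756 (229 to 2233). Counting error was small beside the gap between batches for Id1, Id2 and Id3, while few reads limited Smad6 and Id4.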
